A study of Mus musculus with 2 samples.

Results

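KLF and ATF3 high noncycling microglia are the brain macrophages in which the transcripts of Klf2, Klf6, Rhob, Otud1 and Atf3 together took the largest share of a cell's RNA. They were chosen in steps from all 5696 barcodes. A barcode was kept with at least 500 genes, at most 10% of its UMIs (unique molecular identifiers, each standing for 1 captured transcript) in mitochondrial genes, UMIs of at least 3 of 4 microglial genes (Siglech, P2ry12, Fcrls, Tmem119), and UMIs of at most 1 of 10 cell cycle genes. Of the 1759 noncycling microglia that remained, the 15% with the highest share of UMIs in the 5 genes were taken over both libraries pooled, which gave 264 cells. The other 1495 noncycling microglia are the cells they were set against. Because the 5 genes chose the cells, every level below that sets the chosen cells against the others is a description, with no test.

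The cells came from C57BL/6 mouse brains at day 3 of microglial repopulation and were sorted as CD11b high and CD45 low. One library was made from Hk2 cKO mice, which carry floxed Hk2 alleles and Cx3cr1CreER, a knock-in that drives tamoxifen-activated Cre. The other library was made from Hk2 fl/fl mice, in which the alleles are floxed and no Cre is listed. Recombination was induced with 100 µg tamoxifen on 2 consecutive days at postnatal day 1 to 2 "or as indicated". The labels do not say whether the fl/fl mice received it, how microglia were depleted, how many animals entered a library or how old they were. Cx3cr1 is also expressed by monocytes and border macrophages, so Cre was not restricted to microglia. With 1 library per genotype, genotype, animal, preparation and run cannot be told apart, and no difference between cKO and fl/fl has a replicate check. There were 32896996 UMIs over 2607 barcodes for cKO and 37476201 UMIs over 3089 barcodes for fl/fl. Their barcode lists shared 2 sequences, and 0 of the shared ones were among the chosen cells. Intervals in brackets are exact 95% intervals, Poisson for counts and Clopper-Pearson for shares, and they cover counting error only.

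The 5 genes that define the cells act at different points of a cell's response to its surroundings. KLF2 and KLF6 are zinc finger transcription factors of the Krüppel-like family. KLF2 is known for holding endothelial cells, T cells and myeloid cells in a quiescent, less inflamed state, and KLF6 is an early response gene that in macrophages takes part in inflammatory gene expression. ATF3 is a bZIP factor of the ATF/CREB family, induced by many stresses, that in macrophages limits cytokine transcription downstream of Toll-like receptors. RhoB is an endosomal small GTPase whose gene is itself an immediate early gene. OTUD1 is a deubiquitinase of the ovarian tumour family that acts in innate immune signalling.

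The promoters of Klf2 and Atf3 are shown, as the 2 of the 5 genes whose windows held a searched motif. All 5 genes had 1 promoter window in the RefSeq table (GRCm38.p6), from 250 bases before to 50 bases after the start, and the 250 bases before the start are printed 5′ to 3′ on the gene's strand. Klf2 lies on the forward strand, window chr8:72318812-72319061, and Atf3 on the reverse strand, window chr1:191183334-191183583. Capitals mark matches on either strand to TGANTCA (AP-1), TGACGTNA (ATF and CRE), TGATGNAA (C/EBP-ATF) and the MEF2 motif (CTA and TAG with 4 bases between them).
Klf2: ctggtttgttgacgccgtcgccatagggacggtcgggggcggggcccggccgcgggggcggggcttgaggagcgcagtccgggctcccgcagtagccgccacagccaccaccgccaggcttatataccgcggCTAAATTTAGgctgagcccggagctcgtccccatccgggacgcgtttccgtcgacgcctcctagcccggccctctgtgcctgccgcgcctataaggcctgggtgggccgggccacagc
Atf3: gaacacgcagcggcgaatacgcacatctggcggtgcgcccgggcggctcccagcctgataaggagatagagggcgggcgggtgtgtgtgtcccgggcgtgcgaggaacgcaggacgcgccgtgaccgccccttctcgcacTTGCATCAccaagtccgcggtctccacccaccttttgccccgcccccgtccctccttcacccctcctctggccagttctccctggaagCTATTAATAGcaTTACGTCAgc
The capitals in Klf2 are a MEF2 match from base -118 to -109, counted from the start. In Atf3 they are, in order along the strand, a C/EBP-ATF match from -110 to -103, a MEF2 match from -22 to -13 and an ATF and CRE match from -10 to -3. The matches do not overlap one another. Over the whole 300-base window the MEF2 letters occurred in 2 of the 5 genes and in 3.69% of 32851 promoters, the ATF and CRE letters in 1 of 5 and 2.93%, and the C/EBP-ATF letters in 1 of 5 and 3.97%. The AP-1 letters occurred in 0 of the 5 genes and in 7.81% of all promoters. The motifs were chosen after the windows had been seen, and a match describes letters, not binding.

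The label was checked against markers of microglia and of other cells. The 4 rule markers summed to 3564 CPM (UMIs per 1000000 UMIs of the summed cells; 3438 to 3693) in chosen and 3223 CPM (3185 to 3261) in other noncycling cells of the cKO library. In the fl/fl library the sums were 3460 CPM (3352 to 3571) in chosen and 3045 CPM (3003 to 3088) in other cells. Among 20 homeostatic microglial genes outside the rule, which include Cst3, Mef2c and Sall3, 20 were measured, at a mean of at least 25 CPM over both kinds of cell in both libraries. Their sum was 39496 CPM in chosen and 38125 CPM in other cKO cells, and 42516 CPM in chosen and 38627 CPM in other fl/fl cells. Border macrophage markers were near 0, at 5 UMIs in chosen cKO and 12 UMIs in chosen fl/fl cells, and Cd163, Lyve1 and F13a1 were at 0 in both. Neuron markers had 3 UMIs in chosen cKO and 0 in chosen fl/fl cells, and erythroid markers had 0 in both. Mural cell markers summed to 44.8 CPM (38 UMIs) in chosen and 19.4 CPM in other cKO cells, and to 7.14 CPM (8 UMIs) in chosen and 23.6 CPM in other fl/fl cells. Lymphocyte markers summed to 24.7 CPM (21 UMIs) in chosen and 9.40 CPM in other cKO cells, and to 16.95 CPM (19 UMIs) in chosen and 13.1 CPM in other fl/fl cells. Astrocyte markers were at 41.2 CPM in chosen and 36.9 CPM in other cKO cells, and at 29.4 CPM in chosen and 22.1 CPM in other fl/fl cells. Endothelial markers stood at 596.2 CPM in chosen and 931.7 CPM in other cKO cells, and at 607.6 CPM in chosen and 795.0 CPM in other fl/fl cells. Most of each sum came from Bsg, at 558.5 CPM in chosen and 749.4 CPM in other cKO cells. In the fl/fl library Bsg measured 565.7 CPM in chosen and 680.4 CPM in other cells. Bsg had UMIs in 89 chosen cKO and 159 chosen fl/fl cells. The endothelial marker Cldn5 was at 7.07 CPM in chosen and 54.0 CPM in other cKO cells. In the fl/fl library it was at 7.14 CPM in chosen and 32.9 CPM in other cells. The part of these cell types in the results was not tested. The choice itself fixed the presence of the 4 rule markers, so only the 20 genes outside it bear on the label. Their sum was somewhat higher in the chosen cells of both libraries, and 16 of the 20 were higher in both, against 53.1% of all measured genes. The rise was small, and 0 of the 20 passed 1.5-fold in both libraries. Their median log2 ratio of chosen over other cells was 0.12 in the cKO library, under the all-gene median of 0.14. In the fl/fl library it was 0.21, against an all-gene median of 0.16. Cst3 alone gave 15334 CPM of the sum in chosen and 14904 CPM in other cKO cells, and 16651 and 15307 CPM in fl/fl cells.

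Depth and RNA composition moved with the choice. The median chosen cell had 9077 UMIs and the median other cell 10502 UMIs in the cKO library, and 6426 against 8116 UMIs in the fl/fl library. Mitochondrial genes took 1.89% of the UMIs of chosen and 3.13% of those of other cKO cells, and 1.89% of chosen and 3.32% of other fl/fl cells. Ribosomal protein genes took 11.1% in chosen and 14.4% in other cKO cells, and 11.5% in chosen and 15.6% in other fl/fl cells. Malat1, a nuclear long noncoding RNA, stood at 15094 CPM in chosen and 10830 CPM in other cKO cells, and at 14967 CPM in chosen and 9499 CPM in other fl/fl cells. The part of these differences in the results that follow was not tested beyond the alternatives given beside them.

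The summed level of the 5 genes was a continuum with no gap at the boundary. The lowest chosen cells measured 8072, 8091 and 8092 CPM, and the highest cells left out measured 8038, 8036 and 8022 CPM. Within 500 CPM of the boundary lay 27 chosen cells and 40 others. The median chosen cell measured 10430 CPM and the median other cell 2566 CPM in the cKO library, and 10506 and 3135 CPM in the fl/fl library. The highest cell measured 16991 CPM in the cKO and 31887 CPM in the fl/fl library. By this summed level the chosen cells are therefore the upper end of a range and not a separate group. Whether they stand apart by other genes was not tested.

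**Figure D1:**
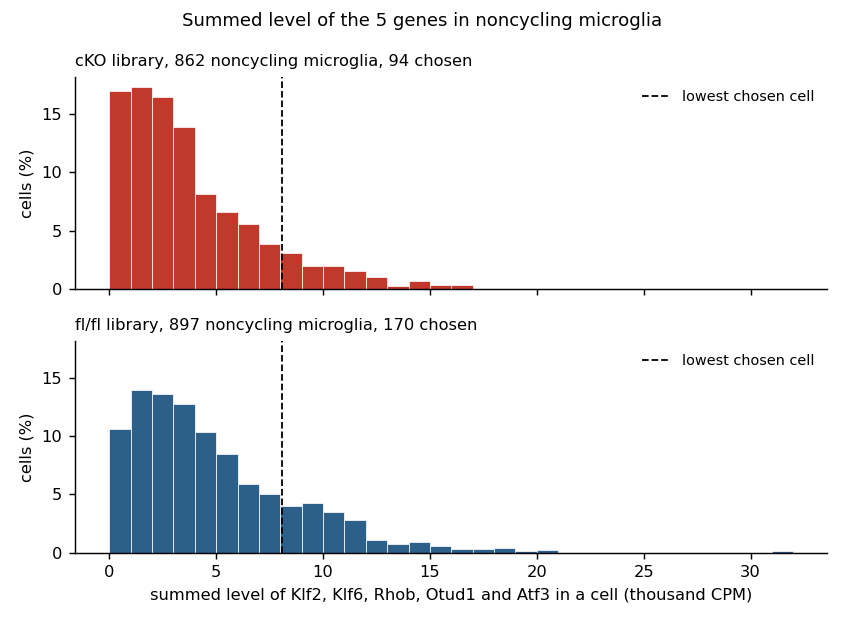
Summed level of Klf2, Klf6, Rhob, Otud1 and Atf3 per noncycling microglial cell (x axis, units of 1000 CPM, bins of 1) against the percent of the library's noncycling microglia (y axis), with cKO above and fl/fl below; the dashed line is the lowest chosen cell at 8072 CPM. Both distributions run through the line without a gap, and 94 cKO and 170 fl/fl cells lie to its right.

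A smaller share of noncycling microglia was chosen in the cKO library. It was 94 of 862 cells (10.9%, 8.90 to 13.2) in the cKO and 170 of 897 cells (18.95%, 16.4 to 21.7) in the fl/fl library, a difference of -8.05 percentage points. Noncycling cells were 42.7% of the 2020 cKO and 35.6% of the 2520 fl/fl barcodes with at least 3 microglial markers. The cKO cells were deeper, so the score was repeated after every cell was thinned to 5000 UMIs, which left out 81 cKO and 132 fl/fl cells. The thinned share was 98 of 781 cKO cells (12.55%, 10.3 to 15.1) and 134 of 765 fl/fl cells (17.5%, 14.9 to 20.4). The same deeper cells without thinning gave 10.8% in the cKO and 16.6% in the fl/fl library. Taking 15% in each library by itself removes the difference by construction.

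The share also differed between groups of cells set by whether UMIs of mt-Nd3 or Gm28438 were detected. UMIs of the mitochondrial gene mt-Nd3 and of Gm28438, an unprocessed pseudogene on chromosome 1, split the cells, as an earlier analysis of these data had found. Among cells with Gm28438 and no mt-Nd3 the share was 68 of 705 (9.65%, 7.57 to 12.1) in the cKO and 28 of 149 (18.8%, 12.9 to 26.0) in the fl/fl library. Among cells with neither it was 26 of 141 (18.4%, 12.4 to 25.8) in the cKO and 90 of 286 (31.5%, 26.1 to 37.2) in the fl/fl library. Cells with mt-Nd3 and no Gm28438 numbered 0 in the cKO library, and in the fl/fl library 51 of 431 were chosen (11.8%, 8.94 to 15.3). The cKO share was the lower one in both groups of cells that the 2 libraries had in common at over 100 cells each. Of cells with both, 0 of 16 cKO and 1 of 31 fl/fl cells were chosen. The cells with neither, set by a lack of UMIs, were the shallowest, with medians of 7244 UMIs in cKO and 6332 UMIs in fl/fl cells. Cells with Gm28438 and no mt-Nd3 had medians of 10968 and 8962 UMIs, and fl/fl cells with mt-Nd3 and no Gm28438 had 8236 UMIs. In addition, mt-Nd3 is a mitochondrial gene, and mitochondrial genes took a smaller part of the UMIs in chosen cells, as given above. What separates these groups of cells, and the part of depth and of mitochondrial UMIs in their shares, was not tested.

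Each of the 5 genes was several-fold higher in the chosen cells of both libraries. Klf2 measured 2121 CPM (2024 to 2221) in chosen and 452.5 CPM (438.3 to 467.0) in other cKO cells, and 2459 CPM (2368 to 2553) in chosen and 514.3 CPM (497.1 to 532.0) in other fl/fl cells. Its log2 ratio of chosen over other cells, with 1 CPM added to each, was 2.23 in the cKO and 2.25 in the fl/fl library. Both libraries gave nearly the same ratio for this gene. Klf6 measured 3132 CPM (3014 to 3253) in chosen and 929.8 CPM (909.4 to 950.5) in other cKO cells, and 3581 CPM (3471 to 3694) in chosen and 1136 CPM (1110 to 1162) in other fl/fl cells, with log2 ratios of 1.75 and 1.66. Rhob measured 2929 CPM in chosen and 885.8 CPM in other cKO cells, and 2924 CPM in chosen and 963.4 CPM in other fl/fl cells, with log2 ratios of 1.72 in the cKO and 1.60 in the fl/fl library. Rhob stood at almost one level in the chosen cells of both genotypes. Otud1, the gene with the fewest UMIs of the 5, measured 283.9 CPM (249.2 to 322.1) in chosen and 60.2 CPM in other cKO cells, and 308.7 CPM (277.0 to 343.0) in chosen and 70.9 CPM in other fl/fl cells, with log2 ratios of 2.22 and 2.11. Atf3 measured 2256 CPM (2156 to 2360) in chosen and 637.2 CPM in other cKO cells, and 1947 CPM (1866 to 2030) in chosen and 661.5 CPM in other fl/fl cells, with log2 ratios of 1.82 and 1.56.

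The 5 genes did not enter every chosen cell alike. Klf6 gave the most UMIs of the 5 in 38 of 94 chosen cKO and 71 of 170 chosen fl/fl cells, Rhob in 22 and 40, Klf2 in 14 and 27, and Atf3 in 14 and 20; ties count for none. The median chosen cell held 3209 CPM of Klf6 in the cKO and 3387 CPM in the fl/fl library, with a lowest value of 505.6 CPM in cKO and 975.8 CPM in fl/fl cells. Klf2 had a median of 1775 CPM in chosen cKO and 1938 CPM in chosen fl/fl cells and was at 0 in the lowest cell of each library. Otud1 had UMIs in 55 of 94 chosen cKO and 91 of 170 chosen fl/fl cells.

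Choosing cells on a gene raises that gene's own value, so each gene was also measured in 2 ways that avoid its counting noise. When each cell's UMIs were split at random into 2 equal parts, cells were chosen on 1 part and levels taken from the other, the 5 genes summed to 10233 CPM in chosen and 3045 CPM in other cKO cells, and to 10860 CPM in chosen and 3407 CPM in other fl/fl cells. The log2 ratios of these sums were 1.75 in the cKO and 1.67 in the fl/fl library, against 1.85 and 1.74 with all UMIs. When a gene was left out of the score and cells were chosen by the other 4, its own ratio was 1.62 in the cKO and 1.91 in the fl/fl library for Klf2, 1.502 and 1.31 for Klf6, 1.48 and 1.33 for Rhob, 1.59 and 1.88 for Otud1, and 1.30 and 1.17 for Atf3. Every gene of the 5 thus stayed more than 2-fold higher in cells it had not helped to choose.

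**Figure D2:**
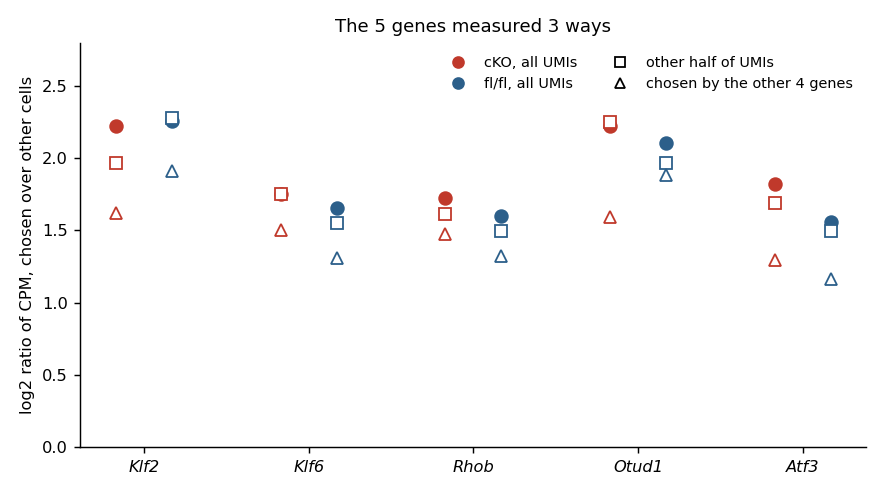
Log2 ratio of CPM, chosen over other noncycling microglia, for the 5 genes that chose the cells (x axis), cKO left of fl/fl: filled circles use all UMIs, squares the part of the UMIs not used for choosing, and triangles cells chosen by the other 4 genes. Triangles lie lowest for each gene, between 1.17 and 1.91.

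Across noncycling cells thinned to 5000 UMIs, Klf6 and Rhob gave Spearman correlations of 0.57 over 781 cKO and 0.55 over 765 fl/fl cells. Klf2 with Klf6 gave 0.50 in cKO and 0.55 in fl/fl cells, and Atf3 with Klf2 gave 0.33 in cKO and 0.32 in fl/fl cells. Otud1 gave between 0.18 and 0.29 with each of the other 4 genes. All cells of a library share its depth and preparation, so these values are descriptions. Among the genes whose thinned counts followed the summed level of the 5 most closely were Ddx5, an RNA helicase (0.60 in cKO and 0.56 in fl/fl cells), Srsf5, a splicing factor (0.56 and 0.53), Mcl1, an anti-apoptotic BCL2 protein (0.57 and 0.51), and Ier5, an immediate early gene (0.57 and 0.50). The genes that ran most against it were Tmsb4x, which encodes the actin-binding thymosin beta 4 (-0.48 in each library), and the ribosomal protein genes Rpl13, Rplp1, Rpl19 and Rpl37a, between -0.44 and -0.40.

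Of 5066 measured genes, 367 (7.24%) were at least 1.5-fold higher in the chosen cells of both libraries and 157 (3.1%) at least 1.5-fold lower, so 70.0% of these genes were higher. The median of all measured genes was 0.14 in the cKO and 0.16 in the fl/fl library, and list medians below are to be read against these values. With TMM scaling, which recentres the bulk of genes, the all-gene medians were -0.08 in the cKO and -0.04 in the fl/fl library, and 92 genes were higher and 417 lower, so that 18.1% were higher. With mitochondrial and ribosomal protein genes left out of the totals, 239 were higher and 227 lower, or 51.3% higher. With the other cells weighted to the depths of the chosen cells, 200 were higher and 88 lower. The balance of higher and lower genes thus depended on the scaling. By any size, 53.1% of measured genes were higher and 27.1% lower in both libraries, which is the background for the list counts of that kind below. For list counts past 1.5-fold in both libraries the background is 7.24% higher and 3.1% lower. The choice of cells used this contrast, so the counts of list members below describe the cells and support nothing beyond that.

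The 12 highest genes outside the 5, ranked by the smaller of their 2 ratios, were of several kinds. Adamts1, a secreted metalloproteinase, measured 474.8 CPM (429.6 to 523.5) in chosen and 111.6 CPM in other cKO cells, and 347.1 CPM (313.4 to 383.3) in chosen and 113.2 CPM in other fl/fl cells (log2 2.08 and 1.61). A few cells carried much of it: the 3 highest cells held 39.7% of its UMIs in chosen cKO and 35.2% in chosen fl/fl cells. Hspb1, a small heat shock protein, measured 75.4 CPM in chosen and 25.7 CPM in other cKO cells, and 186.5 CPM in chosen and 28.9 CPM in other fl/fl cells, with UMIs in 14 of the chosen cKO and 36 of the chosen fl/fl cells. The 3 highest cells held 64.1% of the Hspb1 UMIs in chosen cKO and 35.4% in chosen fl/fl cells. Cebpa, a myeloid lineage factor, was more evenly spread, at 487.8 CPM (441.9 to 537.1) in chosen and 242.8 CPM in other cKO cells, and 537.1 CPM (495.1 to 581.8) in chosen and 254.1 CPM in other fl/fl cells (log2 1.00 and 1.08). Bbc3, which encodes the pro-apoptotic BH3 protein PUMA, had log2 ratios of 1.05 in the cKO and 1.27 in the fl/fl library. Tsc22d3, the glucocorticoid-induced leucine zipper, had ratios of 1.06 and 1.02, and Adrb1, the beta 1 adrenergic receptor, 1.04 and 1.25. The other genes at the top were Rassf1, Klf4, Hist1h1c, Pkp4, Arid3b and Irf2bpl, with log2 ratios between 0.99 and 1.38.

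Other Krüppel-like factors were higher too. The 5 measured members of 8 listed, which include Klf4, Klf7, Klf10 and Klf13, were each higher in both libraries, as were 53.1% of all genes, and 2 passed 1.5-fold in both; the list median was 0.62 in the cKO and 0.67 in the fl/fl library and stayed above 0 in each of the 25 alternatives. Klf4, known with KLF2 from endothelium and monocytes, measured 390.0 CPM (349.1 to 434.3) in chosen and 149.8 CPM in other cKO cells, and 291.8 CPM (261.0 to 325.2) in chosen and 133.0 CPM in other fl/fl cells (log2 1.38 and 1.13). Klf13 had log2 ratios of 0.63 in the cKO and 0.81 in the fl/fl library. Genes known as KLF2 targets in endothelium and lymphocytes had 4 measured members of 10, each higher in both libraries. Among them Txnip, which restrains glucose uptake, had ratios of 0.83 in the cKO and 0.65 in the fl/fl library, and S1pr1, a sphingosine phosphate receptor, 0.33 and 0.77. Thbd was at 0 in chosen cKO cells, and Ccr7 was at 0 in the chosen cells of both libraries.

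Among AP-1 and related bZIP factors, the partners with which ATF3 can pair, 8 of 11 measured genes were higher in both libraries (53.1% of all genes were), 3 of them past 1.5-fold, with a list median of 0.48 in the cKO and 0.32 in the fl/fl library. Jund measured 1689 CPM (1603 to 1779) in chosen and 858.9 CPM in other cKO cells, and 1579 CPM (1507 to 1655) in chosen and 772.7 CPM in other fl/fl cells (log2 0.98 and 1.03). Jun had ratios of 0.92 and 0.96, Mafk, a small Maf factor, 0.78 and 0.82, and Junb, which stayed under 1.5-fold, 0.52 and 0.49. Among 28 measured other immediate early genes, 9 were at least 1.5-fold higher in both libraries and 2 lower, against 7.24% and 3.1% of all genes. Per1, a clock gene, had log2 ratios of 1.41 in the cKO and 0.93 in the fl/fl library, and Id2, an inhibitor of basic helix-loop-helix factors, 1.27 and 0.86. The 2 lower genes were the nuclear receptor Nr4a3 (-1.01 and -2.26, with 19 UMIs in chosen cKO and 6 in chosen fl/fl cells) and the stress sensor Gadd45b, at 176.7 CPM in chosen and 432.7 CPM in other cKO cells, and 204.3 CPM in chosen and 402.5 CPM in other fl/fl cells. Early response genes therefore did not move as 1 block.

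Stress pathways differed in the same way. In the integrated stress response, which slows translation through eIF2 alpha and acts through ATF4, 6 of 8 measured genes were higher in both libraries, against 53.1% of all genes, and 2 passed 1.5-fold, with a list median of 0.47 in the cKO and 0.58 in the fl/fl library. Atf4 measured 611.5 CPM (560.0 to 666.4) in chosen and 322.8 CPM in other cKO cells, and 637.0 CPM (591.2 to 685.5) in chosen and 307.2 CPM in other fl/fl cells, and its partner Ddit3 had log2 ratios of 0.86 and 1.05. Of the same list, Slc7a11 had ratios of 0.50 and 0.62 and Ppp1r15a 0.53 and 0.54, and 1 measured gene was lower in both libraries. The ATF4 targets Chac1 and Asns were at 0 in chosen cKO cells, whereas 0 genes of the list were at 0 in chosen fl/fl cells. Of 12 measured heat shock genes 1 was higher past 1.5-fold in both libraries, Hspb1, as were 7.24% of all genes. The list median was 0.18 in the cKO, which turned to -0.04 with TMM scaling, and 0.39 in the fl/fl library. The chaperone Hsp90ab1 had ratios of -0.02 and -0.06. In the NF-kB list 10 of 12 measured genes were higher in both libraries, against 53.1% of all genes, and 0 passed 1.5-fold in both. The list median was 0.26 in the cKO and 0.43 in the fl/fl library. Log2 ratios were 0.54 and 0.56 for Rel, and 0.00 and -0.18 for the inhibitor Nfkbia. Among antioxidant genes, Hmox1, the inducible heme oxygenase, was higher (1.01 in the cKO and 0.90 in the fl/fl library), whereas thioredoxin Txn1 was lower (-1.13 and -0.90), and 10 of 14 measured members were lower in both libraries, against 27.1% of all genes.

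Of 12 measured transcription factors of microglial identity, 10 were higher in both libraries, against 53.1% of all genes, with a list median of 0.31 in the cKO and 0.45 in the fl/fl library. Past 1.5-fold were 2 of them, Cebpa and the TGF-beta mediator Smad3 (0.90 in the cKO and 0.70 in the fl/fl library). Mef2c, a MADS box factor required for microglial maturation, measured 851.8 CPM in chosen and 578.6 CPM in other cKO cells, and 825.3 CPM in chosen and 594.8 CPM in other fl/fl cells, under 1.5-fold in both. Of the 20 homeostatic genes 0 passed 1.5-fold in both libraries; their median was 0.12 in the cKO, -0.10 there with TMM scaling, and 0.21 in the fl/fl library. P2ry12, the purinergic receptor of resting processes, which the rule itself uses, had ratios of 0.21 in the cKO and 0.27 in the fl/fl library. Of 15 measured damage-associated genes 1 was higher and 2 lower past 1.5-fold in both libraries: Lpl, lipoprotein lipase, at 0.71 and 0.68, against Apoe (-1.03 and -2.20) and Spp1, osteopontin (-0.91 and -1.44). A single cell held 49.2% of the Apoe UMIs of the chosen cKO cells and another 30.9% of those of the chosen fl/fl cells, and Apoe UMIs were seen in 43 of 94 chosen cKO and 61 of 170 chosen fl/fl cells.

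Interferon response genes were lower in the chosen cells. Of 13 measured, 10 were lower in both libraries, against 27.1% of all genes, and 5 past 1.5-fold in both, with a list median of -1.08 in the cKO and -0.44 in the fl/fl library that kept its sign in each of the 25 alternatives. Ifitm3, a membrane protein that blocks viral entry, measured 271.0 CPM (237.1 to 308.4) in chosen and 730.2 CPM (712.2 to 748.6) in other cKO cells, and 112.4 CPM (93.7 to 133.9) in chosen and 268.3 CPM (255.9 to 281.1) in other fl/fl cells. Ifi27l2a measured 1356 CPM in chosen and 3062 CPM in other cKO cells, and 805.7 CPM in chosen and 1507 CPM in other fl/fl cells. When the highest 15% of noncycling cells were taken by the summed interferon list, 5 of the 94 chosen cKO cells (5.32%) were among those 235 cells, or 2.13% of them; such cells were 27.3% of noncycling cKO cells. In the fl/fl library 1 of 170 chosen cells (0.588%) was among 29 such cells, or 3.45% of them, and such cells were 3.23% of noncycling fl/fl cells. Cells taken in the same way by Fos, Jun, Junb and Egr1 held 24 chosen cKO cells (25.5% of the chosen and 20.3% of 118) and 51 chosen fl/fl cells (30.0% of the chosen and 34.9% of 146), where such cells were 13.7% of noncycling cKO and 16.3% of noncycling fl/fl cells. Cells taken by Ccl3 and Ccl4 held 26 chosen cKO cells (27.7% of the chosen and 16.5% of 158) and 39 chosen fl/fl cells (22.9% of the chosen and 36.8% of 106), where such cells were 18.3% of noncycling cKO and 11.8% of noncycling fl/fl cells. Cells taken by Apoe held 13 chosen cKO cells (13.8% of the chosen and 8.67% of 150) and 19 chosen fl/fl cells (11.2% of the chosen and 16.7% of 114), where such cells were 17.4% of noncycling cKO and 12.7% of noncycling fl/fl cells.

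Most measured genes of energy metabolism were lower. Of 30 nuclear genes of the respiratory chain, 29 were lower in both libraries, against 27.1% of all genes, and 12 past 1.5-fold, with a list median of -0.50 in the cKO and -0.59 in the fl/fl library. Ndufs5, a complex I subunit, measured 41.2 CPM (28.7 to 57.4) in chosen and 97.0 CPM (90.5 to 103.9) in other cKO cells, and 43.7 CPM (32.3 to 57.8) in chosen and 90.5 CPM (83.4 to 98.1) in other fl/fl cells. Atp5k of ATP synthase had log2 ratios of -1.12 in the cKO and -1.01 in the fl/fl library, and Cox6c of cytochrome oxidase -0.90 and -0.92. Ribosomal protein transcripts and mitochondrial transcripts, given above, were lower in the same cells. Among 14 measured glycolysis genes 11 were lower in both libraries, against 27.1% of all genes. Of these 1, Pgk1, passed 1.5-fold (-0.74 and -0.61), as did 3.1% of all genes. The list median was -0.43 in the cKO and -0.39 in the fl/fl library. Gapdh had ratios of -0.65 and -0.58, and Tpi1, at -0.57 and -0.86, missed 1.5-fold in the cKO library. Pfkfb3, which makes an activator of phosphofructokinase, ran the other way at 0.75 and 0.54.

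Of 11 measured deubiquitinases, the enzyme class of OTUD1, 8 were higher in both libraries, against 53.1% of all genes. Higher past 1.5-fold in both was 1 of them, Otulin (0.80 and 0.69), as were 7.24% of all genes. The list median was 0.34 in the cKO and 0.43 in the fl/fl library.

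Growth control genes were also mixed. Of 9 measured G1 regulators 1 was higher past 1.5-fold in both libraries, as were 7.24% of all genes. It was the cyclin-dependent kinase inhibitor Cdkn1b (0.61 and 0.68). Cdkn1a, which encodes p21, had ratios of 0.33 and 0.54. Of 5 measured cycle genes outside the rule, the centromere histone Cenpa was higher past 1.5-fold (1.02 and 0.74) and Stmn1, a microtubule destabiliser of dividing cells, lower (-1.63 and -1.33). Median ratios in the cKO and fl/fl libraries were -0.11 and -0.39 for antigen presentation, and 0.01 and 0.15 for lysosome and phagocytosis. They were -0.01 and 0.06 for complement, and 0.17 and 0.36 for HIF targets. With TMM scaling the lysosome medians of both libraries, the complement median of fl/fl and the HIF median of cKO turned sign. Of the 25 alternatives, 7 in cKO and 1 in fl/fl turned the lysosome median. The complement median turned in 5 for cKO and 4 for fl/fl. In those 4 lists 1 gene passed 1.5-fold in both libraries, the immunoproteasome subunit Psmb9 (-0.74 and -0.59). The endothelial markers held 1 lower gene, Cldn5, and the 2 measured monocyte markers, Chil3 and Fn1, were both lower.

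Chemokines were split by gene. Ccl4, a chemokine of activated microglia, measured 5824 CPM (5662 to 5988) in chosen and 3889 CPM (3847 to 3931) in other cKO cells, and 4119 CPM (4001 to 4240) in chosen and 2397 CPM (2359 to 2434) in other fl/fl cells (log2 0.58 and 0.78). Interleukin 1 beta, Il1b, measured 248.6 CPM in chosen and 435.9 CPM in other cKO cells, and 124.9 CPM in chosen and 253.4 CPM in other fl/fl cells (log2 -0.81 and -1.01). Ccl7, a monocyte attractant, had ratios of -1.89 and -1.39. Of 15 measured genes 0 were higher and 2 lower past 1.5-fold in both libraries, and the list median, 0.07 in the cKO and 0.02 in the fl/fl library, fell below 0 in 8 and 7 of the 25 alternatives.

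**Figure D3:**
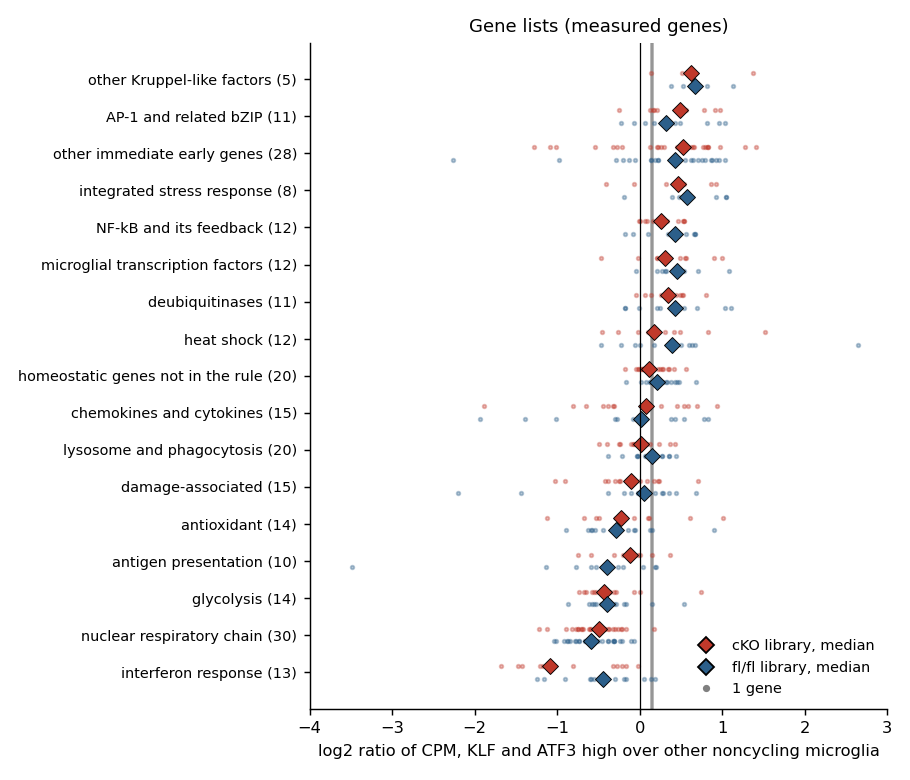
Log2 ratio of CPM, KLF and ATF3 high over other noncycling microglia (x axis), for the measured genes of 17 lists, with the number measured in brackets; cKO is above fl/fl, dots are genes, diamonds list medians, and the grey band spans the all-gene medians of 0.14 and 0.16. Krüppel-like factors lie right of the band, and respiratory chain and interferon genes left of it.

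Among the lowest genes were markers of neutrophils. Camp and Ngp, granule proteins of neutrophil precursors, had 6 and 5 UMIs in chosen cKO cells, against 2159 and 1754 in other cKO cells, and 6 and 5 UMIs in chosen fl/fl cells, against 1825 and 1570 in other fl/fl cells. S100a8 had 8 UMIs in the chosen and 9623 in the other cKO cells, and 297 in the chosen and 8034 in the other fl/fl cells; 1 cell held 94.95% of the 297. The UMIs of the other cells also lay in a few cells: the 3 highest held 97.1% of Camp, 94.4% of Ngp and 75.3% of S100a8 in other cKO cells, and 71.9%, 69.2% and 57.6% in other fl/fl cells. The 9 neutrophil markers summed to 251.0 CPM in chosen and 3086 CPM in other cKO cells, and to 982.3 CPM in chosen and 3390 CPM in other fl/fl cells. UMIs of S100a8 were present in 8 of 94 chosen and 100 of 768 other cKO cells, and in 14 of 170 chosen and 104 of 727 other fl/fl cells. Leaving out every cell with a UMI of S100a8, S100a9, Camp or Ngp left 63 chosen of 580 cKO and 117 chosen of 617 fl/fl noncycling cells. It gave 341 genes higher and 147 lower in both libraries, against 367 and 157 with them. Stmn1 was also among them, at 38.9 CPM in chosen and 122.5 CPM in other cKO cells and 49.96 CPM in chosen and 126.8 CPM in other fl/fl cells. The other lowest genes were Lcn2, S100a9, Rcan1, Ccl7, Ifitm3, Ndufs5, Apoe and S100a4.

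The lists changed by steps and not at the boundary alone. The other noncycling cells were divided into 4 groups, numbered 1 to 4 from low to high, by the summed level of the 5 genes, over both libraries pooled. From group 1 to the chosen cells, the other immediate early genes summed to 5449, 9801, 11359, 11339 and 13245 CPM in cKO cells, and to 5781, 9528, 10234, 10400 and 12928 CPM in fl/fl cells. The largest step lay between groups 1 and 2 in both libraries. The nuclear respiratory chain list summed to 10506, 8563, 7595, 6975 and 5850 CPM in cKO cells, and to 10681, 9530, 8255, 7609 and 5920 CPM in fl/fl cells, lower at each step. Interferon genes summed to 7251, 6984, 5677, 4263 and 3097 CPM in cKO cells. In fl/fl cells they summed to 3136, 2989, 2578, 2736 and 1751 CPM, with the largest step at the chosen cells. Neutrophil markers summed to 7215 CPM in group 1 of cKO cells and, in fl/fl cells, to 3620 CPM in group 1 and 7414 CPM in group 4, so they did not follow the order in that library.

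**Figure D4:**
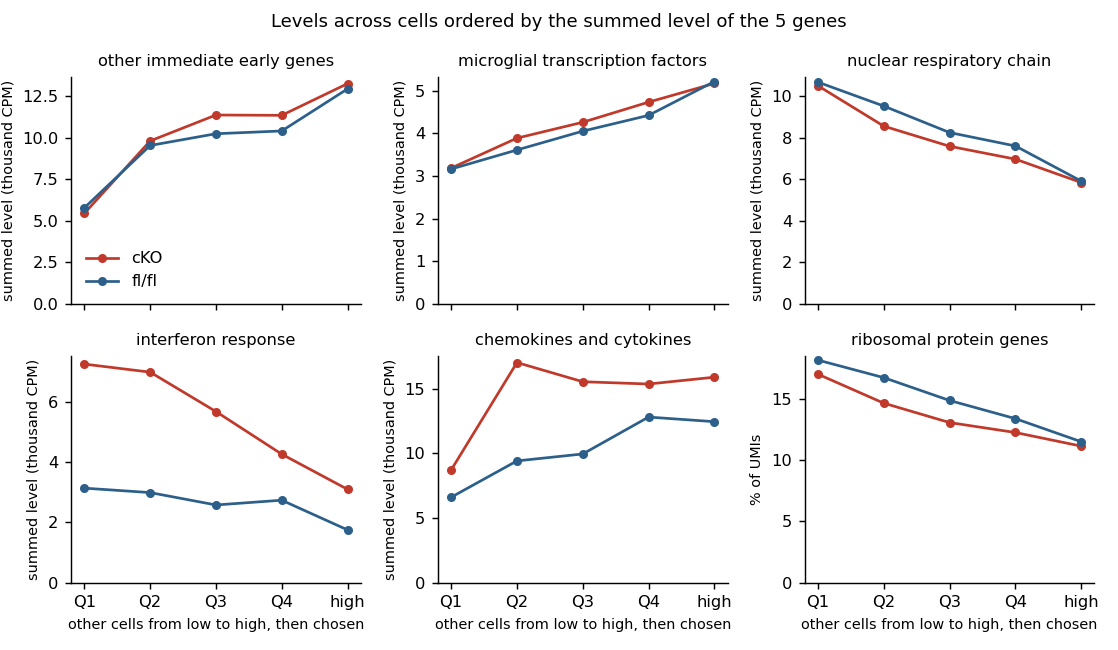
Summed levels of 5 gene lists (units of 1000 CPM) and the percent of UMIs in ribosomal protein genes (y axes) across the 4 groups of other noncycling microglia, Q1 lowest, and the chosen cells (x axis), with cKO in red and fl/fl in blue. Microglial transcription factors climb, and respiratory chain and ribosomal protein genes decline, at each step in both libraries.

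Within the chosen cells, the targeted gene was lower in the cKO library. Hk2 (ENSMUSG00000000628, chromosome 6, 82725025 to 82774454, GRCm38), hexokinase 2 of the first step of glycolysis, measured 46.0 CPM (32.7 to 62.8) in chosen cKO cells and 186.5 CPM (162.0 to 213.5) in chosen fl/fl cells, a log2 ratio of -2.00. In the other noncycling cells it measured 56.2 CPM in the cKO and 189.6 CPM in the fl/fl library, a ratio of -1.74. The intervals of chosen and other cells overlapped within each library (log2 ratio of chosen over other -0.28 in the cKO and -0.02 in the fl/fl library). Hk3 measured 42.4 CPM in chosen cKO and 46.4 CPM in chosen fl/fl cells, and Hk1 had 4 UMIs in chosen cKO and 18 UMIs in chosen fl/fl cells.

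Over 5066 measured genes, 183 (3.61%) were at least 1.5-fold higher and 176 (3.47%) at least 1.5-fold lower in chosen cKO than in chosen fl/fl cells, with an all-gene median of -0.01. In the other noncycling cells, which hold more UMIs, 77 (1.52%) were higher and 31 (0.612%) lower. Of the interferon response genes, 12 of 13 measured were at least 1.5-fold higher in chosen cKO cells, with a list median of 0.89, and 13 of 13 in other cKO cells, with a median of 1.31. Slfn5, a Schlafen family gene, measured 74.2 CPM (57.0 to 94.97) in chosen cKO and 11.6 CPM (6.18 to 19.8) in chosen fl/fl cells (log2 2.58). Ifitm3 had a ratio of 1.26. Among chemokines and cytokines 6 of 15 were at least 1.5-fold higher in chosen cKO cells and 0 lower, with a median of 0.39, and 7 of 15 were higher in other cKO cells, with a median of 0.49. Cxcl2, a neutrophil attractant, had a ratio of 1.11 in chosen cells, but 3 cells held 72.7% of its UMIs in chosen cKO cells, and its ratio in the other cells was -0.51. Other genes at the top were Rtp4, Plau, Ifi207, Rnf213, Phf11b and Hcar2, with log2 ratios between 1.02 and 1.48.

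The genes that mark the chosen cells themselves stayed under 1.5-fold between the genotypes. Of the 5 genes, 0 reached 1.5-fold in either direction in chosen or in other cells, with log2 ratios of cKO over fl/fl in chosen cells of -0.21 for Klf2, -0.19 for Klf6, 0.00 for Rhob, -0.12 for Otud1 and 0.21 for Atf3. In the other cells these ratios were -0.18, -0.29, -0.12, -0.23 and -0.05 in the same order. The pooled threshold limits how far the sum of the 5 can differ between chosen cells of the libraries. The median ratio in chosen cells was 0.10 for the other Krüppel-like factors, 0.04 for AP-1 factors, -0.02 for the nuclear respiratory chain, 0.03 for glycolysis and -0.03 for homeostatic genes, and each of these turned sign in 1 or more of the 25 alternatives. At the lower end, S100a8, S100a9, Lcn2, Retnlg and S100a6 were lower in chosen cKO cells, and for each of these 5 the highest fl/fl cell alone held between 79.7% and 97.96% of the UMIs of the chosen fl/fl cells. Hspb1 measured 75.4 CPM in chosen cKO and 186.5 CPM in chosen fl/fl cells, and the histone gene Hist1h2bc 55.4 and 120.5 CPM. Bscl2, which encodes the lipid droplet protein seipin, measured 38.9 CPM in chosen cKO and 79.4 CPM in chosen fl/fl cells, and Mpp6, a scaffold protein, 34.2 and 68.7 CPM.

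**Figure D5:**
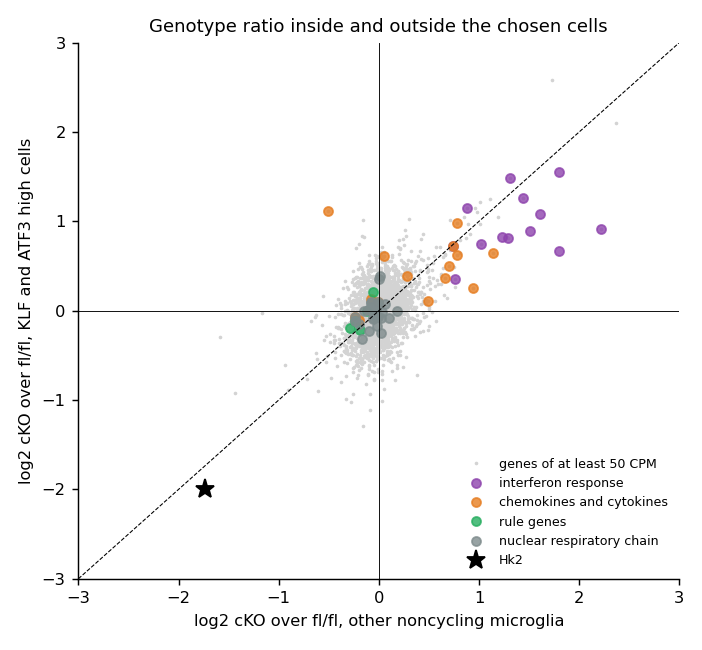
Log2 ratio of CPM, cKO over fl/fl, in KLF and ATF3 high cells (y axis) against the same ratio in other noncycling microglia (x axis) for 3095 genes of at least 50 CPM, and, in colour, the measured genes of 4 lists and Hk2; 7 genes lie beyond the axes and the dashed line marks equal ratios. Interferon genes lie right of and above 0, and the 5 genes of the rule lie near the origin.

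The 5 genes were also summed in cells outside noncycling microglia. The choice itself raised the sum in the chosen cells, so these sums are set beside the other noncycling cells. Those measured 2965 CPM in the cKO and 3346 CPM in the fl/fl library. The 5 genes summed to 2094 CPM in 1158 cycling cKO microglia and 2818 CPM in 1623 cycling fl/fl microglia. Of these cycling cells 26 cKO (2.25%) and 69 fl/fl cells (4.25%) reached the level of the lowest chosen cell. Among noncycling microglia 10.9% of cKO and 18.95% of fl/fl cells did, by the choice. In cells with neutrophil markers the sum was 563.7 CPM in 66 cKO and 625.6 CPM in 49 fl/fl cells, and in cells with monocyte markers 547.5 CPM in 63 cKO and 931.1 CPM in 76 fl/fl cells. Cells with endothelial markers, of which 36 were cKO and 18 fl/fl, gave 2607 CPM in the cKO and 1456 CPM in the fl/fl library. Klf2, a gene of resting endothelium, made up 1420 CPM of the endothelial cKO sum and 741.2 CPM of the fl/fl one.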

How the data were processed

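Per the labels' protocols, FACS-purified CD11b high, CD45 low brain cells of each genotype went into 1 library of the 10x Chromium 3' kit (v3). The deposited values are raw UMI counts per gene and barcode, without normalization; bcl2fastq and Cell Ranger 3.1.0 with the GRCm38 build are named in the submitters' processing notes. Replicate, animal and annotation details are not given in the sources used here. Gene positions come from GENCODE M21 and promoters from RefSeq.

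The cell rule, the 5 genes, the 40 gene lists and the comparisons were chosen with earlier results of these data known. Counts were summed over chosen and over other cells of each library and divided by the total to CPM. A log2 ratio has 1 CPM added to each side, which shrinks ratios of genes with few UMIs. A gene counted as measured when its 4 sums averaged at least 25 CPM, and as called past 1.5-fold, for chosen over other cells the same way in both libraries. Named genes needed a mean of at least 50 CPM and were the 12 highest and 12 lowest by the smaller ratio, the 10 highest and 10 lowest between genotypes with non-overlapping Poisson intervals, the 4 measured members of a list that moved furthest and its most abundant one, the hexokinases, and the 5 genes most like the summed level; a few of the genes and lists so chosen are not reported here. Sex, haemoglobin, mitochondrial and ribosomal protein genes and unnamed models were not eligible for the highest and lowest. The median depth of chosen cells was 9077 UMIs in the cKO and 6426 UMIs in the fl/fl library. No doublet caller was run; leaving out the deepest 4% of barcodes of each library was an alternative. Neither genotype has a replicate library, hence the absence of tests. Sums, thinning and splitting were tested on simulated data. Of 25 alternatives, 1 was added after the data had been seen, the exclusion of cells with neutrophil RNA. TMM factors came from edgeR 4.0.16 (R 4.3.3), intervals from scipy 1.17.1 and sums from numpy 2.4.6 and pandas 2.3.3 in Python 3.11.15, with plots by matplotlib 3.10.9.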

Additional observations from a re-analysis of the deposited data

Results flagged for a closer look

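Ttr, the transthyretin gene of the choroid plexus, was the gene singled out for opposite directions in the libraries; the difference was not tested. Its log2 ratio of KLF and ATF3 high over other noncycling microglia was 1.08 in the cKO library and -4.003 in the fl/fl library. It had 6 UMIs in chosen and 24 UMIs in other cKO cells, and 14 UMIs in chosen and 1415 UMIs in other fl/fl cells. A single cell held 94.7% of the 1415 UMIs.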

How the results depend on the processing

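The shares changed where the number of cells taken changed. At the highest 10% they were 6.73% in the cKO and 13.15% in the fl/fl library, at 20% they were 15.2% and 24.6%, and at 15% in each library by itself 14.97% and 15.05%, a difference of -0.085 percentage points. The difference was -8.05 percentage points as reported, -5.09 with Klf6 left out of the score and -4.97 in thinned cells, and the remaining alternatives also kept a lower share in the cKO library.

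Genes higher in chosen cells of both libraries numbered 367, against 92 with TMM scaling, 239 without mitochondrial and ribosomal protein genes in the total, 945 with no filter on low genes and 200 with other cells weighted to the depths of the chosen ones. Lower genes numbered 157, against 417 with TMM scaling, 239 at a mean of at least 10 CPM, 1039 with no filter and 88 with depth weights.

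Between genotypes within the chosen cells, 183 genes were higher and 176 lower in cKO. With 10% of cells taken there were 297 higher and 343 lower, with 20% 106 lower, and with UMIs split for choosing and measuring 360 higher and 405 lower. With no cycle gene allowed there were 410 higher and 512 lower, with all 4 microglial markers 268 lower, and without cells of 2 or more other markers 397 higher and 484 lower. In cells with Gm28438 and no mt-Nd3 there were 493 higher and 669 lower, without cells with neutrophil RNA 314 and 294, at a mean of 10 CPM 554 and 542, and with no filter 2933 and 3344. Most of these settings use fewer cells or lower genes. The cause of each change in count was not tested.

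No paired analysis was possible because each genotype has 1 library, and no replicate could be left out. Cells with Xist and no Y gene were too few to compare, and cells with mt-Nd3 and no Gm28438 were absent from the cKO library, so these alternatives were not run. Hk2 within the chosen cells gave log2 ratios of cKO over fl/fl between -2.58 and -1.52.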
